A study of Rattus norvegicus with 31 samples.

Results

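Translation factors and aminoacyl-tRNA synthetases are the proteins that start, extend and end the synthesis of a polypeptide and that load each tRNA with its amino acid. Their transcripts were followed in motor neurons of the rat tail after spinal cord injury. Members were the probe sets that carry 1 gene symbol of an eIF1 to eIF6, eEF1 or eEF2 family name, Etf1, Farsa, Farsb or another synthetase of the cytosol or mitochondria. There were 96 such probe sets for 76 genes, of 12913 probe sets tested in all. A further 6 probe sets that also carry another symbol were left out, and no probe set here stands for Eif4e, the cap-binding subunit, or for Wars1, the tryptophanyl-tRNA synthetase.

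The motor neurons of adult male Wistar rats were labelled with Fluoro-Gold and cut by laser from segments S3 and S4, and each of the 31 arrays stands for 1 animal. The groups were Control (uninjured, n = 4) and rats killed after complete transection of the cord at S2: Spi-2 (2 days, n = 6), Spi-7 (7 days, n = 5), Spi-21 (21 days, n = 8) and Spi-60 (60 days, n = 8). All values are log2 expression, so that a difference of 1 is a 2-fold change. The Spi-21 and Spi-60 arrays had been made in an earlier study than those of Spi-2, Spi-7 and Control, so that late days and study cannot be told apart in any comparison of Spi-21 or Spi-60 with the other groups. The RNA went through amplification by multiple rounds, and it was pooled within an animal, so that fewer cells expressing a gene and less RNA per cell cannot be told apart either.

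As background, initiation begins when eIF2 brings the initiator tRNA to the small ribosomal subunit, which eIF3 also binds. The eIF4 proteins bind the cap and unwind the leader of the mRNA. Phosphorylation of eIF2 by stress kinases blocks its exchange factor eIF2B, which lowers general initiation and raises translation of the transcription factor ATF4, an activator of many synthetase genes. Elongation then runs on eEF1A, which delivers charged tRNAs, and eEF2, which moves the ribosome along. Motor neurons are large cells with long axons and prominent rough endoplasmic reticulum, and inherited mutations of several synthetases, Gars1 among them, cause peripheral motor neuropathy.

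The cut cells carried the markers of motor neurons: 8 of 10 listed genes were measured, their mean level was between 10.1 and 10.8 in every animal, and the neurofilament gene Nefh lay between 13.75 and 14.37. Among them Prph, a neuronal intermediate filament, rose on all 4 days (0.59 to 0.79), and Slc5a7, the choline transporter of cholinergic neurons, fell at days 2, 21 and 60 (-1.18, -1.11 and -1.06). Markers of other cells moved with injury. The mean over 9 microglia and macrophage genes was 6.31 to 7.15 in Spi-2, against 5.52 to 5.78 in Control, and 4 of the 9 rose at day 2, while Gfap of astrocytes was 11.17 to 11.56 in Spi-2, against 8.06 to 9.52 in Control. Gfap was the 1 astrocyte probe set of 8 called at day 2, where 5 of the 8 were negative, and the mean over that list was 7.64 to 7.81 in Spi-2, against 7.16 to 7.85 in Control. The oligodendrocyte mean was 6.97 to 7.35 in Spi-2, against 7.14 to 7.79 in Control, and 2 of its 11 probe sets fell at day 2, both of them for Mbp of myelin (-2.14 and -0.62). Such shifts were also seen after day 2. The microglia and macrophage mean was 5.89 to 6.88 at day 7 and 5.85 to 7.20 at day 60, above every Control animal. Its day 21 range of 5.50 to 7.12 overlapped Control. Of its 9 genes, 1 rose at day 7, 2 at day 21 and 3 at day 60. Gfap was 9.83 to 11.89 at day 60, where it rose by 1.83 (limma, adjusted p = 0.00211). Of the 11 oligodendrocyte probe sets, 1 fell at day 7, 4 at day 21 and 2 at day 60. The mean over 5 interneuron genes was 5.45 to 6.18 in Spi-21, against 6.10 to 7.40 in Control. The excess of the 3′ over the 5′ control probe set of Gapdh, which grows as RNA shortens, was 1.80 to 2.50 in Control, 2.30 to 3.38 in Spi-2, 2.38 to 3.33 in Spi-7, 1.13 to 3.54 in Spi-21, and in Spi-60 it was 2.99 to 3.97. Spi-21 replicates 1 to 3 stood apart in their group, with a Gapdh excess of 2.90 to 3.54, against 1.13 to 2.76 in the other 5 animals. They also had the narrowest spread of values in that group (interquartile range 1.74 to 1.79, against 1.83 to 1.89). Spi-7 replicate 5 had an interquartile range of 1.75, where the median of its group was 1.98. Calls of members and of related translation genes at day 21 are given with and without Spi-21 replicates 1 to 3. The part of these shifts in the results was not tested beyond that and a fit with the Gapdh excess as a covariate.

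Taken over all members, levels after transection overlapped those before it, and a minority of the genes changed: Eif4a2 and Eif3j fell and Eif3b rose on all 4 days, and Eif5a and Vars1 rose late. Of these calls, only those of Eif4a2 and Eif3j at days 2 and 21 held in every alternative fit described below. The late changes cannot be told apart from the study of origin. The mean over the 96 members was 7.40 to 7.61 in Control, 7.42 to 7.56 in Spi-2, 7.30 to 7.58 in Spi-7, 7.22 to 7.52 in Spi-21, and in Spi-60 it was 7.27 to 7.50, so that every injured group overlapped Control. In limma's contrasts with Control, adjusted over all probe sets, 20 members passed at 1 or more days (adjusted p under 0.05) and 76 passed at none. At day 2, 3 members fell (3.12%, against 4.98% of all probe sets) and 2 rose (2.08%, against 3.9%). Day 7 had 2 lower members (2.08%, against 1.67%) and 1 higher (1.04%, against 0.914%). By day 21, 11 were lower (11.5%, against 10.7%) and 4 higher (4.17%, against 5.94%), and at day 60 there were 9 lower (9.38%, against 9.89%) and 7 higher (7.29%, against 7.2%). These shares lie near those of the array as a whole. At day 21, leaving out Spi-21 replicates 1 to 3 left 4 members called, all lower (Eif4a2, Eif3j, Eif3m and Hars2), or 4.17%, against 3.91% of all probe sets lower and 1.36% higher, and with the Gapdh excess as a covariate 1 member was called at day 60 (Eif4e3, a cap-binding homologue, -0.82 ± 0.22, adjusted p = 0.0457), which had not passed without it.

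**Figure D1:**
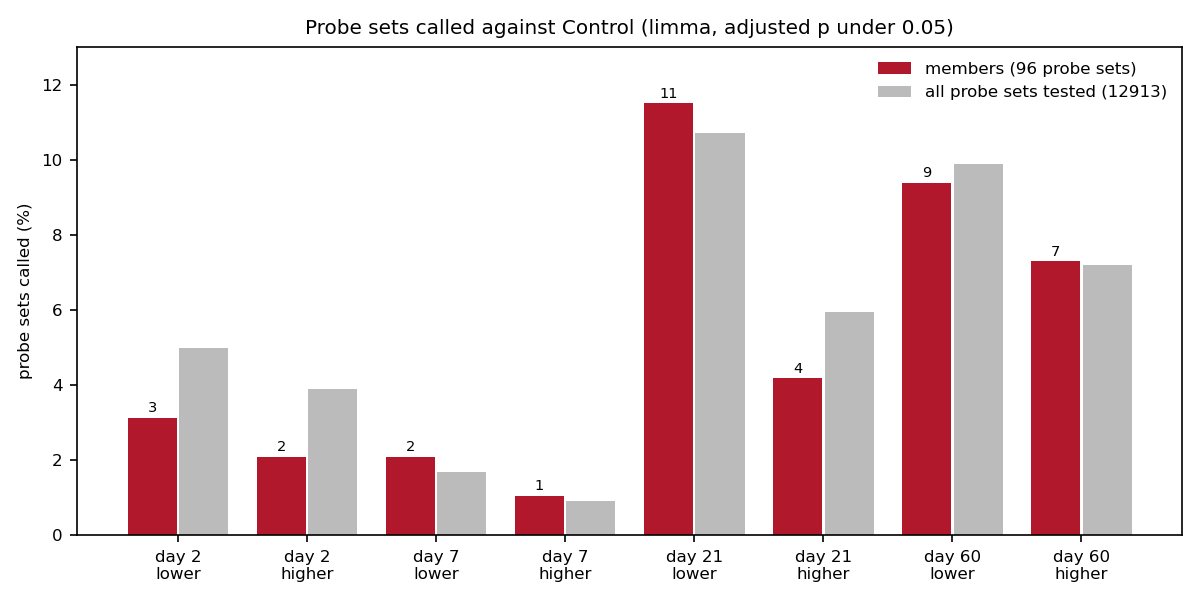
Percentage of probe sets called lower or higher than Control at each day after transection (limma, adjusted p under 0.05), for the 96 translation factor and synthetase probe sets (red, with the number called above each bar) and for all 12913 probe sets (grey). The red and grey bars stay close on every day, and both are taller at days 21 and 60 than at days 2 and 7.

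The F-test over the 5 groups (FDR 0.02) called 18 members, or 18.8%, against 16.2% of all probe sets. Among Control, Spi-2 and Spi-7 alone, whose 15 arrays come from the same study, 2 members passed (2.08%, against 3.01%), Eif4a2 and Eif3j, and 12 had an unadjusted p under 0.05 (12.5%, against 19.6%). None passed limma's contrast of Spi-60 with Spi-21 on 16 arrays, for which 0.00774% of all probe sets passed, and 11 had an unadjusted p under 0.05 (11.5%, against 10.4%). None of the members, and 0% of all probe sets, passed between Spi-7 and Spi-2 in limma, where 2 members had an unadjusted p under 0.05 (2.08%, against 3.56%). The median log2 change over the members was 0.01 on both early days, -0.07 at day 21 and -0.09 at day 60, and over all probe sets it stayed between -0.0030 and 0.013.

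Members are bright on this array, since 56 of the 96 lie among the brightest 4304 of the 12913 probe sets. Within that bright part, 10.7% of members and 19.3% of all probe sets were lower at day 21, and 8.93% of members and 18.5% of all probe sets were lower at day 60. The median log2 change there was -0.069 over members and -0.122 over all probe sets at day 21. At day 60 it was -0.100 over members and -0.102 over all, so that members were no lower than probe sets of like brightness. Among the dimmest 4305 probe sets, which hold 16 members, 12.5% of members and 3.25% of all probe sets were lower at day 21, and 12.5% and 2.88% at day 60, which is 2 members on each day.

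**Figure D2:**
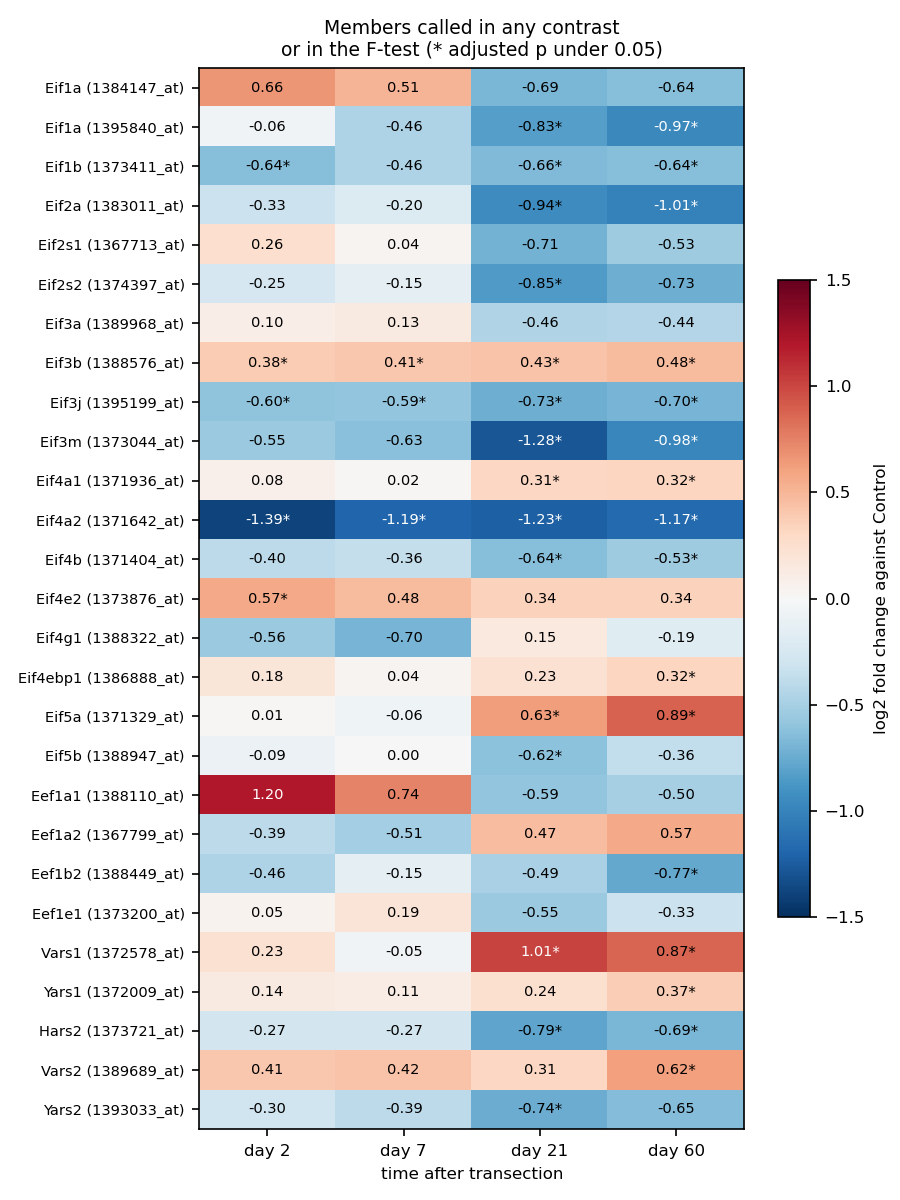
Log2 fold change against Control at days 2, 7, 21 and 60 (columns) for the 27 member probe sets called in a contrast or in the F-test (rows, ordered by class), with red for higher and blue for lower, and an asterisk where limma's adjusted p was under 0.05. Eif4a2, Eif3j and Eif3b carry asterisks on all 4 days, and most other calls stand at days 21 and 60.

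The deepest change of any member belonged to Eif4a2, one of the paralogous DEAD-box helicases that unwind the mRNA leader within the cap-binding complex. Eif4a2 (1371642_at) was at 9.50, 9.75, 10.04 and 9.33 in the Control rats, with 7.78, 8.19 and 8.87 as the lowest, median and highest of Spi-2 and 8.99, 8.33, 8.95, 8.29 and 7.78 in Spi-7. It ran 7.83, 8.46 and 9.08 (lowest, median, highest) in Spi-21 and 7.88, 8.58 and 8.91 in Spi-60. No injured animal on any day reached the lowest Control. The log2 change was -1.39 ± 0.26 (SE) at day 2 (limma, adjusted p = 0.000756), -1.19 ± 0.27 at day 7 (0.00999), and then -1.23 ± 0.24 at day 21 (0.00136) and -1.17 ± 0.24 by day 60 (0.00143). Without Spi-21 replicates 1 to 3 the change at day 21 was -0.95 with an adjusted p of 0.0241. With the Gapdh excess as a covariate the call was lost at day 7 (-0.99, adjusted p = 0.0829) and at day 60 (-0.86, adjusted p = 0.128), and it was also lost at day 7 without Control replicate 3.

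Its paralogue Eif4a1, the more widely expressed helicase, moved the other way and late. Eif4a1 (1371936_at) measured 6.54, 6.72, 6.59 and 6.97 in Control, between 6.67 and 6.88 in Spi-2 (median 6.77), and 6.62, 6.67, 6.68, 6.72 and 6.93 in Spi-7. Spi-21 animals ran from 6.79 to 7.27 and Spi-60 animals from 6.82 to 7.22, each with a median of 7.03. Both late groups overlap Control through its highest rat. Eif4a1 rose by 0.31 ± 0.10 at day 21 (adjusted p = 0.0287) and 0.32 ± 0.10 at day 60 (adjusted p = 0.0253), and its changes at days 2 and 7 were 0.08 ± 0.10 and 0.02 ± 0.11. Leaving out Control replicate 1, 2 or 3 ended both calls, and without Spi-21 replicates 1 to 3 the change at day 21 was 0.33 (adjusted p = 0.0675). Adding the replicate number as a block also ended both. The day 21 call was further lost without Spi-21 replicate 2 and in a fit of Spi-21 and Control alone. With the Gapdh covariate the day 60 change was 0.42 and did not pass (adjusted p = 0.0684).

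Pdcd4, which binds eIF4A and keeps it out of the cap complex, fell on every day as well. It is no member but belongs to a list of 19 measured partners of translation. Its probe set 1387521_at was 5.55 to 6.27 in Spi-2 and 5.55 to 6.25 in Spi-60, against 6.77 to 7.32 in Control, with changes of -1.22, -1.16, -1.30 and -1.16 over the 4 days, and its probe set 1383327_at changed by -1.03, -1.03, -1.20 and -1.40. Of that list's 24 probe sets, 2 fell at day 7 and 3 on each of the other days, all of them Pdcd4 or Denr, a factor of ribosome recycling and reinitiation. The same 3 probe sets fell at day 21 when Spi-21 replicates 1 to 3 were left out (Pdcd4 -1.09 on both and Denr -0.59, adjusted p up to 0.0311). Pabpc4, a poly(A)-binding protein, rose at day 2 on 1371777_at (0.63 ± 0.13, adjusted p = 0.00259) and was at -0.20 on the dim 1382443_at (adjusted p = 0.363), and Mknk2, a kinase of eIF4E, rose at day 60 (0.39 ± 0.13, adjusted p = 0.031).

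Elsewhere in the cap complex, Eif4e2 rose early and 1 probe set of Eif4b fell late. Eif4e2, a cap-binding homologue that represses translation of its targets, rose at day 2 (0.57 ± 0.14, adjusted p = 0.0121), with 7.62, 8.09 and 8.37 as lowest, median and highest in Spi-2, against 7.32, 7.58, 7.16 and 7.73 in Control. Its change was 0.48 at day 7 (adjusted p = 0.0816) and 0.34 at both late days. That day 2 call was lost without Control replicate 3 and in a fit of Spi-2 and Control alone. Eif4b, which stimulates the helicase, fell on probe set 1371404_at by 0.64 at day 21 and 0.53 at day 60, whereas its other probe set 1372124_at lay at 0.11 and 0.06 on those days and was not called. The day 21 call of Eif4b was lost when Spi-21 replicates 1 to 3 were left out (-0.52, adjusted p = 0.112).

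Eif4g1, the scaffold that joins the cap-binding protein to the helicase, passed no contrast with Control, but its 3 probe sets did not behave alike. On 1388322_at it was 6.22 to 7.76 in Spi-2, and 6.41, 6.27, 6.65, 6.39 and 7.44 in Spi-7, against 7.28, 7.18, 6.96 and 7.92 in Control. Changes there were -0.56 ± 0.23 and -0.70 ± 0.24 on the early days (adjusted p = 0.127 and 0.109) and 0.15 and -0.19 on the late ones. The changes of the dimmer 1385152_at and 1390340_a_at lay between -0.18 and 0.19. Eif4ebp1, which sequesters the cap-binding protein until it is phosphorylated, was 6.48 to 7.02 in Spi-60, against 6.26 to 6.40 in Control. It rose at day 60 by 0.32 ± 0.10 (adjusted p = 0.0286), a call lost without Control replicate 1 or 2, without Spi-60 replicate 1 or 5, and with the Gapdh covariate (0.27, adjusted p = 0.287).

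**Figure D3:**
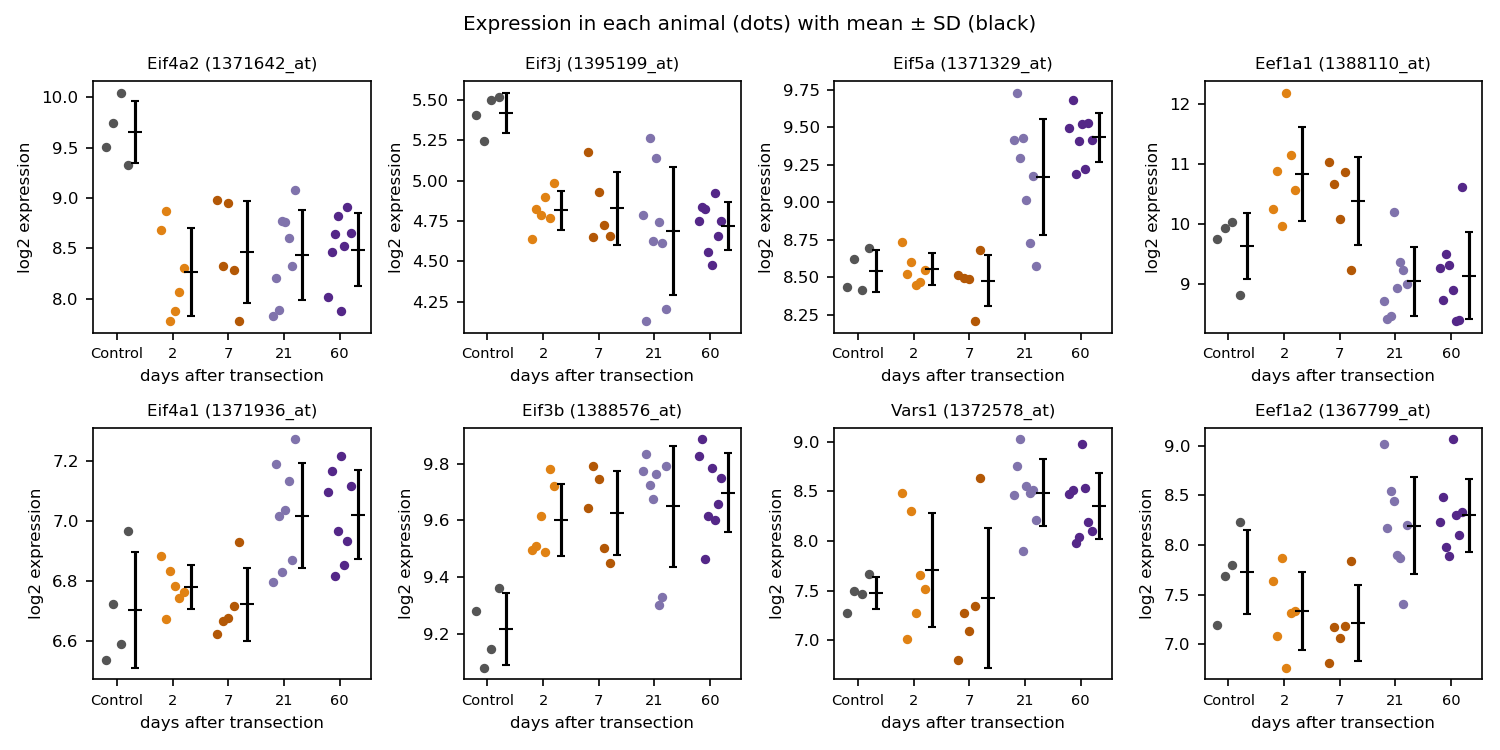
Log2 expression of 8 member probe sets in each animal (dots) by group, from Control through 2, 7, 21 and 60 days after transection, with the mean ± SD in black; each panel has its own vertical axis, which does not start at 0. Eif4a2 lies below every Control rat on all days, Eif3j is lower and Eif3b higher throughout with slight overlap at day 21, Eif5a and Vars1 are higher at days 21 and 60, and Eef1a1 and Eef1a2 run in opposite directions between the early and late groups.

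Among the 15 probe sets of eIF3, the largest initiation factor, 3 subunits were called and did not share a direction. Eif3j, a loosely bound subunit that aids assembly on the ribosome, was at 5.41, 5.24, 5.50 and 5.52 in Control and at 5.18, 4.65, 4.93, 4.73 and 4.66 in Spi-7. The lowest, median and highest values were 4.63, 4.80 and 4.98 in Spi-2, 4.13, 4.68 and 5.26 in Spi-21, and 4.47, 4.75 and 4.92 in Spi-60. Only Spi-21 overlapped Control. Eif3j fell by 0.60 ± 0.16, 0.59 ± 0.16, 0.73 ± 0.15 and 0.70 ± 0.15 over the 4 days (adjusted p = 0.014, 0.0453, 0.00171 and 0.00189). The probe set is dim, at the 5.88th percentile of mean signal. The day 7 call was lost in 19 of 38 alternative fits, and with the Gapdh covariate the day 60 change was still -0.70 but did not pass (adjusted p = 0.0537).

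Eif3b, the scaffold subunit that joins the eIF3 core to its peripheral parts, rose on every day. It measured 9.28, 9.08, 9.15 and 9.36 in Control and 9.64, 9.79, 9.75, 9.50 and 9.45 in Spi-7. Its lowest, median and highest values were 9.49, 9.56 and 9.78 in Spi-2, 9.30, 9.74 and 9.84 in Spi-21, and 9.47, 9.70 and 9.89 in Spi-60. All injured animals but 2 of Spi-21 (9.30 and 9.33) lay above the highest Control. The changes were 0.38 ± 0.11, 0.41 ± 0.12, 0.43 ± 0.11 and 0.48 ± 0.11 (adjusted p = 0.026, 0.0499, 0.00626 and 0.00231). The call at day 7 was lost in 26 of 39 alternative fits, and that at day 21 without Spi-21 replicates 1 to 3 (0.35, adjusted p = 0.0624). The day 2 call was lost in 5 of 39, among them the fit with the Gapdh covariate (0.29, adjusted p = 0.13). That covariate also ended the day 60 call (0.31, adjusted p = 0.195).

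Eif3m, a subunit of the eIF3 core, had the largest fall at day 21. It stood at 9.01, 9.76, 9.53 and 9.43 in Control, at 8.31 to 9.32 in Spi-2 (median 8.85) and at 9.22, 8.89, 8.89, 8.92 and 8.11 in Spi-7. Spi-21 ran from 7.04 to 8.86 and Spi-60 from 7.93 to 8.75, each with a median of 8.51, so that both lay below every Control rat. The change was -1.28 ± 0.28 at day 21 (adjusted p = 0.00282) and -0.98 ± 0.28 at day 60 (adjusted p = 0.014). Without Spi-21 replicates 1 to 3 it was -0.77 at day 21 (adjusted p = 0.0296), and with the Gapdh covariate it was -0.46 at day 60 (adjusted p = 0.509). The changes at days 2 and 7, -0.55 and -0.63, did not pass. The other 12 eIF3 probe sets, those of the core subunit Eif3a among them, passed no contrast with Control.

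Among the factors that read the start codon, Eif1b and 1 of 3 probe sets of Eif1a fell. Eif1b, a close relative of the start codon gatekeeper eIF1, was at 8.47, 8.28, 8.44 and 8.94 in Control, at 7.57 to 8.41 in Spi-2, at 8.18, 8.21, 8.32, 7.69 and 7.95 in Spi-7, at 7.39 to 8.28 in Spi-21, and at 7.63 to 8.21 in Spi-60. It fell by 0.64 ± 0.18 at day 2 (adjusted p = 0.0205), by 0.66 ± 0.17 at day 21 (0.0081) and 0.64 ± 0.17 at day 60 (0.00878), and was -0.46 ± 0.18 at day 7 (0.197). Without Spi-21 replicates 1 to 3 its day 21 change was -0.51 (adjusted p = 0.0734), and without Control replicate 4, or with the Gapdh covariate (-0.53 and -0.44, adjusted p = 0.0889 and 0.277), the calls at days 2 and 60 were lost.

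Eif1a, which works beside eIF1 in scanning, has 3 probe sets. Probe set 1395840_at fell by 0.83 ± 0.28 at day 21 (adjusted p = 0.0391) and by 0.97 ± 0.28 at day 60 (adjusted p = 0.0155), and the first of these calls was lost in 9 of 38 alternative fits, among them that without Spi-21 replicates 1 to 3 (-0.48, adjusted p = 0.242). The second call, at day 60, was lost without Control replicate 2 and with the Gapdh covariate (-0.35, adjusted p = 0.62). The mean signal of this probe set is at the 2.55th percentile. On the brighter 1384147_at, Spi-2 animals lay at 6.89, 7.01 and 7.35 (lowest, median, highest), all above the 6.15, 6.76, 6.23 and 6.44 of Control, and Spi-21 and Spi-60 ran from 4.77 to 6.37 and from 4.86 to 6.46. No contrast of that probe set with Control passed (0.66 at day 2, adjusted p = 0.171; -0.69 at day 21, adjusted p = 0.0878). All 3 probe sets lay lower in the late than in the early groups, as given below.

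Of the eIF2 group, Eif2a, which can deliver the initiator tRNA by a route apart from eIF2 itself, changed most. Eif2a was 6.05, 6.81 and 7.10 (lowest, median, highest) in Spi-21 and 5.70, 6.66 and 7.18 in Spi-60, against 7.29, 8.11, 7.34 and 7.72 in Control. Neither late group overlapped Control. It fell by 0.94 ± 0.23 at day 21 (adjusted p = 0.0063, and 0.0799 without Spi-21 replicates 1 to 3) and by 1.01 ± 0.23 at day 60 (adjusted p = 0.00308), with a day 60 change of -0.57 (adjusted p = 0.276) under the Gapdh covariate. Eif2s2, the beta subunit of eIF2, fell at day 21 (-0.85, and -0.51 with an adjusted p of 0.271 without Spi-21 replicates 1 to 3). Eif2s1, the alpha subunit that stress kinases phosphorylate, was 8.95 to 9.61 in Spi-60, against 9.62 to 10.10 in Control, without overlap, and its change of -0.53 ± 0.28 did not pass (adjusted p = 0.197).

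The stress kinases and the exchange factor themselves were not called on any day. Eif2ak3 (PERK, the kinase of the endoplasmic reticulum) was 6.17 to 6.82 in Spi-2 and 5.63 to 6.45 in Spi-60, against 6.21 to 6.49 in Control. Eif2ak4 (GCN2, which senses uncharged tRNA) was 6.29 to 6.70 in Spi-21, below the 6.72 to 7.04 of Control, with a change of -0.39 ± 0.15 (adjusted p = 0.0737). The 5 probe sets of eIF2B had changes between -0.28 and 0.43, and Eif2b5, its catalytic subunit, was at -0.26 and 0.01 at day 2 on its 2 probe sets (adjusted p = 0.329 and 0.989).

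Eif5a, the hypusine-carrying factor that helps ribosomes through difficult stretches such as runs of proline, had the smallest adjusted p of any member at day 60. It was at 8.44, 8.62, 8.42 and 8.70 in Control, at 8.45 to 8.74 in Spi-2 (median 8.53), and at 8.52, 8.50, 8.49, 8.21 and 8.68 in Spi-7. In Spi-21 the lowest, median and highest were 8.58, 9.23 and 9.73, and in Spi-60 they were 9.19, 9.46 and 9.68. Early groups lay within or close to the Control range, and every Spi-60 rat lay above it. The changes were 0.01 ± 0.15, -0.06 ± 0.16, 0.63 ± 0.14 and 0.89 ± 0.14 over the 4 days (adjusted p = 0.976, 0.899, 0.00432 and 0.000158). Without Spi-21 replicates 1 to 3 the day 21 change was 0.44 (adjusted p = 0.0507), and with the Gapdh covariate the day 60 change was 0.51 (adjusted p = 0.0718). Eif5b, the GTPase that joins the ribosomal subunits, fell at day 21 on 1388947_at (-0.62, and -0.42 with an adjusted p of 0.163 without Spi-21 replicates 1 to 3) and was -0.01 on 1395237_at, which was not called.

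Among the elongation factors, Eef1b2, which recharges eEF1A with GTP, passed against Control. Eef1b2 was 9.99, 10.79 and 10.98 (lowest, median, highest) in Spi-60, against 11.51, 11.34, 11.56 and 11.22 in Control, without overlap. It fell by 0.77 ± 0.22 at day 60 (adjusted p = 0.0132), a call lost without Control replicate 3. With the Gapdh covariate the change was -0.86 and did not pass (adjusted p = 0.099). Eef2, the translocase, had changes between -0.24 and 0.13 and was not called, nor was its inhibitory kinase Eef2k on either probe set, nor Etf1, the factor that releases the chain at stop codons.

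The 2 forms of eEF1A ran in opposite directions over time. In rodents Eef1a1 is the widespread form and Eef1a2 the form of mature neurons and muscle, which takes over after birth. Eef1a1 (1388110_at) was at 9.76, 9.93, 10.04 and 8.83 in Control, 9.97 to 12.19 in Spi-2 (median 10.72) and 11.04, 10.67, 10.09, 10.88 and 9.24 in Spi-7. It then ran from 8.41 to 10.21 in Spi-21 (median 8.97) and from 8.38 to 10.62 in Spi-60 (median 9.09). Every group overlaps Control, and no contrast with Control passed (1.20 ± 0.41 at day 2, adjusted p = 0.0628). The second probe set 1370109_s_at, whose suffix marks a set that matches more than 1 transcript, had 0.61 at day 2 and -0.67 at day 21 (adjusted p = 0.428 and 0.26). Eef1a1 has many near-identical processed copies in mammalian genomes, so that its signal may include them.

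Eef1a2 (1367799_at) was at 7.19, 7.69, 7.80 and 8.23 in Control, 6.76 to 7.87 in Spi-2 (median 7.32), and 6.81, 7.17, 7.06, 7.18 and 7.84 in Spi-7. In Spi-21 it ran from 7.40 to 9.02 (median 8.19) and in Spi-60 from 7.89 to 9.06 (median 8.27). All Spi-60 rats lay above all Spi-7 rats and every Spi-2 rat. Against Control the changes were -0.39, -0.51, 0.47 and 0.57, and none passed (adjusted p = 0.379, 0.347, 0.177 and 0.0983). The F-test over the 5 groups called both genes, with adjusted p of 0.000906 for Eef1a2 and 0.00102 for Eef1a1 on 1388110_at.

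A contrast of the late groups (mean of Spi-21 and Spi-60) with the early groups (mean of Spi-2 and Spi-7), chosen after seeing the data, measured that difference. Eef1a1 was lower late by 1.52 on the log2 scale (-1.52 ± 0.25, adjusted p = 0.000117) and Eef1a2 higher (0.97 ± 0.15, adjusted p = 7.74e-05). On 1370109_s_at Eef1a1 was at -1.01 ± 0.26 (adjusted p = 0.00616). These calls held in all 38 alternative fits. In this contrast 18 members were lower (18.8%, against 12.2% of all probe sets) and 8 higher (8.33%, against 11%). Eif1a was lower on its 3 probe sets (-1.25, -0.81 and -0.64), as were Eif2s1 (-0.76), Eif2a (-0.71) and Eif3a on 1389968_at (-0.56). Vars1 (0.85), Eif5a (0.78), Eif4g1 on 1388322_at (0.61) and Eif4a1 (0.27) were higher. All late arrays came from one study and all early arrays from another, so that time after injury and study cannot be told apart here.

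The synthetases classed as cytosolic, 20 probe sets for 16 genes, held no lower call on any day and no higher one at days 2 and 7. That class was set by gene symbol alone and not by where each enzyme works. At day 21, 1 of the 20 rose, against 5.94% of all probe sets, and at day 60, 2 of the 20 rose, against 7.2%, while 10.7% and 9.89% of all probe sets were lower on those days, and the class median lay between -0.03 and 0.10 on all days. Vars1, which charges valine tRNA, stood at 7.28, 7.50, 7.47 and 7.66 in Control, 7.01 to 8.48 in Spi-2 (median 7.58) and 6.80, 7.27, 7.09, 7.34 and 8.63 in Spi-7. Its lowest, median and highest values were 7.90, 8.49 and 9.02 in Spi-21 and 7.98, 8.33 and 8.97 in Spi-60, so that all late animals exceeded all Control rats. Vars1 rose by 1.01 ± 0.26 at day 21 (adjusted p = 0.00885) and 0.87 ± 0.26 at day 60 (adjusted p = 0.0188). Without Spi-21 replicates 1 to 3 the day 21 change was 0.85 with an adjusted p of 0.0726, and the day 60 call was lost without Control replicate 1. With the Gapdh covariate the day 60 change was 1.03 and did not pass (adjusted p = 0.0989).

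Yars1, the tyrosine enzyme, was 8.37 to 8.68 in Spi-60, against 7.94 to 8.29 in Control, and rose by 0.37 ± 0.11 at day 60 (adjusted p = 0.0212), a call lost without Control replicate 1 or 3 and with the Gapdh covariate (0.28, adjusted p = 0.32). The neuropathy gene Gars1 on 1388715_at, at the 97.7th percentile of mean signal, had 10.01 to 10.42 in Spi-2, against 10.63, 10.42, 10.47 and 10.81 in Control, and its change of -0.35 ± 0.12 at day 2 missed the threshold (adjusted p = 0.059). Its dimmer probe set lay at -0.07 that day. Aars1 had changes between -0.33 and 0.08 and Sars1 between 0.12 and 0.45, and neither was called.

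**Figure D4:**
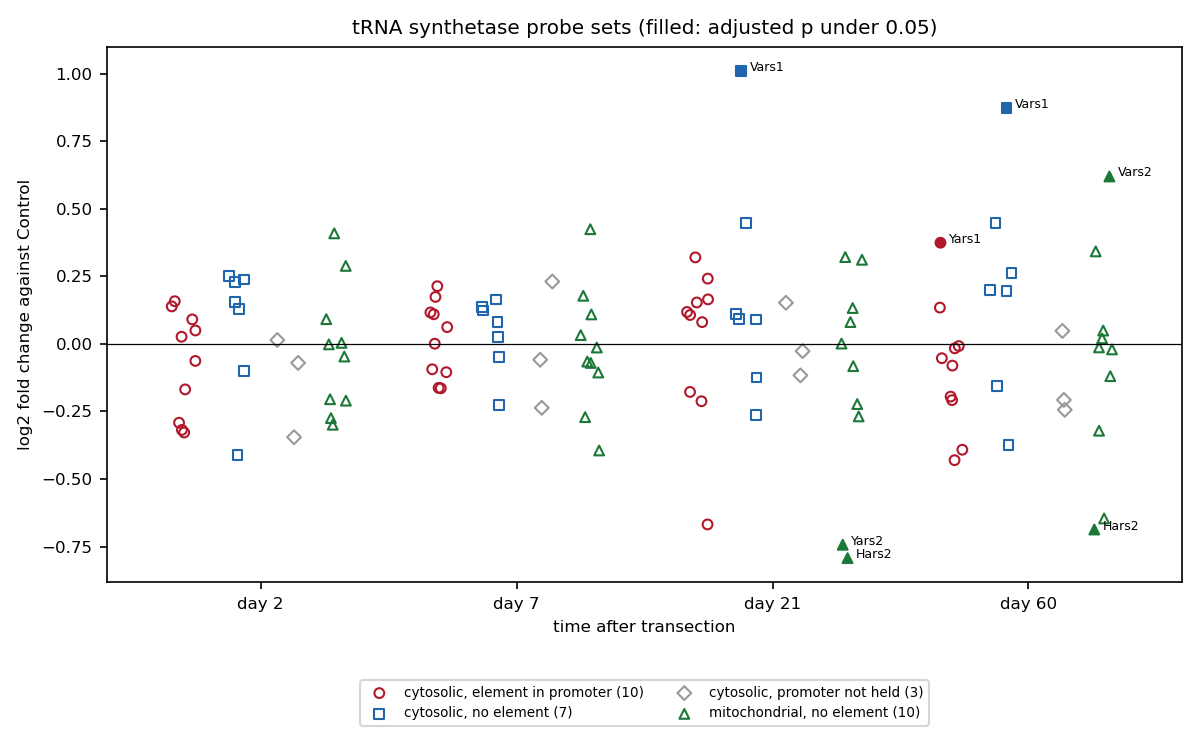
Log2 fold change against Control of each tRNA synthetase probe set at days 2, 7, 21 and 60, split into cytosolic enzymes whose promoter holds the C/EBP-ATF response element (red circles, 10 probe sets), cytosolic enzymes without it (blue squares, 7), cytosolic enzymes with no promoter in the table used (grey diamonds, 3) and mitochondrial enzymes (green triangles, 10). Filled symbols passed limma at an adjusted p under 0.05; they are Vars1 and Yars1 in the cytosolic classes and Hars2, Yars2 and Vars2 in the mitochondrial class.

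Some members, most of them cytosolic synthetases, carry in their promoter the element through which ATF4 acts. RefSeq promoters (rat GRCr8, 250 bases before to 50 after the start) were found for 69 of the 76 genes and searched on both strands for TGATGCAA, the C/EBP-ATF response element. It stood in 8 of the 69 (11.6%), against 0.795% of all 33469 promoters and 0.657% of those of 8070 genes on the array, and in 7 of 14 cytosolic synthetases (50.0%) and none of 8 mitochondrial ones. The stretches below show the element in capitals, as TGATGCAA or as TTGCATCA where it lies on the other strand, in 5 synthetases and in Eif2s2, read 5′ to 3′ along each gene.
Tars1 (threonine, chr2:62114803-62114862, minus strand): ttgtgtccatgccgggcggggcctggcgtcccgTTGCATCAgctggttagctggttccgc
Iars1 (isoleucine, chr17:15193653-15193712, minus strand): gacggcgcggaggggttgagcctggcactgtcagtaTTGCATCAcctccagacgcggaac
Mars1 (methionine, chr7:65023754-65023813, minus strand): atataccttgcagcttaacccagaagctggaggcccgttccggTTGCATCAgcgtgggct
Nars1 (asparagine, chr18:60275783-60275842, minus strand): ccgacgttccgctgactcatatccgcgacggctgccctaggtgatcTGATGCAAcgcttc
Aars1 (alanine, chr19:55908344-55908403, plus strand): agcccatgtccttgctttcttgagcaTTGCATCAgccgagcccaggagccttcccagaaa
Eif2s2 (eIF2 beta, chr3:163855573-163855632, minus strand): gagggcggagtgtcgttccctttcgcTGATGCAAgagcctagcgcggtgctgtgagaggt

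The 10 probe sets of the 7 synthetases with the element had a median change of -0.02 and 0.03 on the early days and 0.11 and -0.07 on the late ones, with none lower and 1 higher (Yars1 at day 60). The 7 probe sets of synthetases without it were at 0.15, 0.08, 0.09 and 0.20, with Vars1 higher at the late days. Atf4 itself fell at day 2 (-0.55 ± 0.17, adjusted p = 0.0366). Of 14 probe sets for 13 genes of the amino acid response, 2 fell and 1 rose at day 2, none passed at day 7, 2 fell and 1 rose at day 21, and 2 fell and 2 rose at day 60. Psat1 of serine synthesis fell at days 2 and 21 (-1.01 at the first of these), and Ddit3, which encodes the stress factor CHOP, fell at day 60 (-0.83). Shmt2 of mitochondrial one-carbon metabolism rose at days 21 and 60 (0.73 and 1.04). When Spi-21 replicates 1 to 3 were left out, 2 of these 14 probe sets were lower at day 21, Psat1 among them (-1.08, adjusted p = 0.0256), and Shmt2 no longer passed (0.53, adjusted p = 0.0583).

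A second motif was counted in the same promoters, the E-box CACGTG, a palindrome bound by MYC and related factors. It stood in 15 of the 69 (21.7%), against 6.42% of all promoters and 8.86% of those of genes on the array. Among members called higher on 1 or more days 3 of 7 promoters held it (Eif3b, Eif5a and Vars1), and among those called lower 1 of 11 did (Eif1b). The windows of these 4 genes show its place, with the E-box in capitals.
Eif3b (chr12:19334803-19334842, minus strand): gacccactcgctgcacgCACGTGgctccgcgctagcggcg
Eif5a (chr10:55143405-55143444, minus strand): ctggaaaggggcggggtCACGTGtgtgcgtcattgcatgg
Vars1 (chr20:3824968-3825007, minus strand): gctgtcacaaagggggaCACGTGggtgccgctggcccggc
Eif1b (chr8:129081087-129081126, plus strand): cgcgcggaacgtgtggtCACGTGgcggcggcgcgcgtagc

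Mitochondrial synthetases, 10 probe sets for 8 genes, gave 2 lower calls at day 21, where 10.7% of all probe sets were lower. At day 60 they gave 1 lower and 1 higher, against 9.89% and 7.2% of all probe sets. Such counts are too small to set the class apart from the array. Hars2, which charges mitochondrial histidine tRNA, (1373721_at) was 5.29 to 6.23 in Spi-21 rats, with 5.47 to 6.49 in those of Spi-60, against 6.74, 6.90, 6.68 and 6.80 in Control. Neither late group reached Control. It fell by 0.79 ± 0.19 at day 21 (adjusted p = 0.00577; 0.0497 without Spi-21 replicates 1 to 3) and by 0.69 ± 0.19 at day 60 (adjusted p = 0.0128; 0.268 with the Gapdh covariate). Its second probe set 1378050_at had smaller changes of -0.27 and -0.32 (adjusted p = 0.138 and 0.0753). Yars2 fell at day 21 (-0.74, and -0.43 with an adjusted p of 0.314 without Spi-21 replicates 1 to 3).

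Vars2, the mitochondrial counterpart of Vars1, rose at day 60 (0.62 ± 0.13, adjusted p = 0.00143), with 4.74 to 5.50 in Spi-60, against 4.73, 4.77, 4.12 and 4.58 in Control, on a dim probe set at the 8.64th percentile. With the Gapdh covariate its change was 0.52 and did not pass (adjusted p = 0.0900). Among 5 measured mitochondrial translation factors, with 8 probe sets, none passed at days 2 and 7, 1 fell and 1 rose at day 21, and 2 fell and 1 rose at day 60. Mtrf1l, a mitochondrial release factor, fell on both late days (-0.82 and -0.65), and its day 21 call was lost when Spi-21 replicates 1 to 3 were left out (-0.47, adjusted p = 0.087). Tufm, the mitochondrial elongation factor Tu, has 3 probe sets. It rose on the dim 1395647_at, at the 10.9th percentile of mean signal, on both late days (0.63 and 0.38, and 0.61 at day 21 with an adjusted p of 0.00719 without those 3 animals). On 1371962_at, at the 93.4th percentile, it was at -0.01 and -0.15, and on 1395719_at at 0.21 and 0.15, and neither was called. Tars3, a threonyl-tRNA synthetase of the cytosol that stood in the list of mitochondrial factors, fell at day 21 (-0.70 ± 0.20, adjusted p = 0.0192, and -0.37 with an adjusted p of 0.215 without those 3 animals).

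Of 17 member genes with more than 1 probe set, 4 (Eif1a, Eif4b, Eif5b and Hars2) had 1 probe set called against Control while their other probe sets were not, and the other 13 had none called. The other 16 called members rest on genes with a single member probe set.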

How the data were processed

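Expression was measured on 31 Affymetrix rat expression arrays, 1 per animal. The deposited values are log2: the authors dropped probe sets outside Ensembl's chip annotation, compensated the background, quantile normalized, summarised by RMA (named without a version in the submitters' processing notes), and compensated and normalized again. Genome build and aligner do not apply to these values, and the number of arrays limits the precision. Of 12919 probe sets, 6 control sets were left out. Symbols came from the platform annotation, where 11880 probe sets have 1 symbol, 320 several and 713 none.

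A mean per group was fitted to the 31 arrays with limma 3.58.1 in R 4.3.3, without covariates. P-values are two-sided and Benjamini-Hochberg adjusted over 12913 probe sets. Contrasts were called at 0.05 and F-tests at an FDR of 0.02, the threshold in the methods, which combined limma with other tests. The ± after a change is the SE of the fit. The script was tested on simulated data. Alternatives left out each animal in turn, added the replicate number as a block or the Gapdh excess as a covariate, normalized again, dropped dim probe sets, weighted arrays, used an intensity trend, fitted 2 groups alone, left out Spi-21 replicates 1 to 3, or kept 1 probe set per gene.

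Members, lists and markers were chosen with earlier results of these data known. Members were named by rule: the 6 of smallest p in each direction per contrast, the 12 of smallest F-test p, a set of key factors and all probe sets of these genes. Eif2s2, Eif4b, Eif5b and Yars2, also called, and Eif4e3 fall outside the rule and were named after their values were seen. Promoters were read from RefSeq with Python 3.11.15.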

Additional observations from a re-analysis of the deposited data

Results flagged for a closer look

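In 10 of 200 groups tested, 1 animal lay far from the others of its group (Dixon's criterion at 95%, which chance meets in about 1 of 20 groups). In Spi-2 replicate 1, Eif2s1 was 9.30 with the others at 9.98 to 10.36, Vars2 was 4.60 with the others at 4.96 to 5.13, and Eif4g1 on 1390340_a_at was 5.92 with the others at 4.35 to 4.81. In Spi-7 replicate 5, Eif2ak3 was 5.48 with the others at 6.26 to 6.55, and Eif4ebp1 was 6.63 with the others at 6.26 to 6.31. In Control replicate 4, Eif2ak4 was 7.04 with the others at 6.72 to 6.77, and Aars1 was 11.29 with the others at 10.82 to 10.85. Hars2 on 1373721_at was 5.29 in Spi-21 replicate 2, Eif2ak4 was 6.70 in Spi-21 replicate 5, and Eif3a on 1379485_at was 4.06 in Spi-60 replicate 1.

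For 17 named probe sets the change at the late days differed from that at the early days, by the limma contrast of the mean of Spi-21 and Spi-60 with the mean of Spi-2 and Spi-7. Lower late were Eef1a1 on both probe sets (-1.52 on 1388110_at and -1.01 on 1370109_s_at), Eif1a on 3 (-1.25, -0.81 and -0.64), Eif2s1 (-0.76), Eif2a (-0.71), Eif3a on 1389968_at (-0.56), Eif3m (-0.54), Hars2 on 2 (-0.47 and -0.24) and Eif2ak4 (-0.37). Higher late were Eef1a2 (0.97), Vars1 (0.85), Eif5a (0.78), Eif4g1 on 1388322_at (0.61) and Eif4a1 (0.27). The difference of Eif3m was lost without Spi-7 replicate 1 and without Spi-21 replicates 1 to 3 (-0.28 in the latter, adjusted p = 0.128). That of Hars2 on 1378050_at was lost in 9 of 38 alternative fits, with an adjusted p of up to 0.0692. Time after injury and study of origin cannot be told apart in any of the 17 probe sets.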

How the results depend on the processing

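Of 51 named calls, 34 against Control and 17 of late against early, 21 held in every alternative fit and none reversed. Most of these 21 were of late against early. Those that held against Control were Eif4a2 and Eif3j at days 2 and 21, and Eif3m and Hars2 on 1373721_at at day 21. The Gapdh covariate ended 21 of the 51. With it, 3 members were called at day 2, 0 at day 7 and 1 at day 60. That 1 was Eif4e3, which was not called without the covariate. At day 60 the covariate has no overlap between Spi-60 and Control. Without Spi-21 replicates 1 to 3, 4 members were called at day 21. Array weights gave 36 members by the F-test, and by contrast 14 (day 2), 11 (day 7) and 28 (day 60), with 4 among days 0, 2 and 7, and 40 late against early. A further quantile normalization gave 8 at day 2, leaving out dim probe sets gave 1 among days 0, 2 and 7, and fitting Spi-60 and Control alone gave 26 at day 60. With the replicate number as a block, 1 member was called at day 7 and 0 among days 0, 2 and 7. The deviations of same-numbered animals of different groups had a median correlation of -0.04 over 51 pairs, 11 of them over 0.1. Animals of other numbers had 0.0055 over 327 pairs, 78 of them over 0.1. The labels do not say whether the numbers pair the animals, and these correlations cannot decide it.

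Leaving out 1 animal at a time gave 10 to 29 members by the F-test (18 with all arrays), 3 to 8 for day 2 (5), 0 to 4 for day 7 (3), 10 to 19 at day 21 (15), 11 to 20 at day 60 (16), 0 to 2 among days 0, 2 and 7 (2), 0 between Spi-60 and Spi-21 (0), and 20 to 32 late against early (26). The F-test count was 10 without Control replicate 3 and 29 without Spi-7 replicate 5, and the day 2 count was 8 without Spi-2 replicate 1. The cause of these moves was not tested. With 4 Control animals every contrast rests on few arrays, and the dim probe sets of Eif3j, Eif1a and Vars2 lie near the lower end of the measured signal.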
